A study of Mus musculus with 8 samples.

Results

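The genes described here are 10 genes for heat shock proteins, the molecular chaperones that fold other proteins. They were taken by name from a table of 13786 protein-coding genes, all 10 were found in it, and every one had at least 10 counts in every mouse. The members were Hspa1a, Hspa1b, Hspa8, Hsph1, Dnajb1, Hsp90aa1 and Hsp90ab1 of the cytosol, Hspa5 and Hsp90b1 of the endoplasmic reticulum (ER), and Hspd1 of the mitochondrion. RNA was sequenced from CD11c-positive splenocytes of 4 C57BL/6 mice and 4 B6.SLE123 mice, all untreated females aged 7 weeks and bought from a vendor. B6.SLE123 is a lupus-prone strain that carries the Sle1, Sle2 and Sle3 susceptibility intervals on a C57BL/6 background, and C57BL/6 is its control. CD11c, the product of Itgax, is carried by dendritic cells and also by some macrophages and other leukocytes, and the labels call the cells dendritic cells. Whether a library held cells of 1 mouse or of a pool was not given in the sources used here. The tests therefore set strain differences against the variation between libraries. Libraries are called mice below, though they need not be single animals.

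Chaperones of the HSP70 family bind unfolded stretches of protein and release them in a cycle driven by ATP, helped by J-domain proteins that load clients and by exchange factors that renew the nucleotide. HSP90 receives clients such as kinases and receptors from HSP70 and completes their folding, while the chaperonin HSP60 folds proteins inside a closed chamber. Stress in the cytosol activates heat shock factor 1, which binds inverted repeats of the letters GAA in front of its target genes, whereas stress in the ER acts through ATF6 and XBP1 on another element. In dendritic cells, these proteins also serve antigen processing, and some can carry peptides to antigen-presenting cells when released.

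The promoter windows of the members held different elements. RefSeq windows of GRCm38.p6, running from 250 bases before to 50 bases after a transcript start, were at hand for 7 of the 10 members, in 10 windows, and not for Hspa8, Hsp90aa1 and Hsp90ab1. The pair GAANNTTC stood in at least 1 window of Hspa1a, Hspa1b, Hsph1 and Hspd1, and in 7.86% of the 32851 windows of all genes. The pair TTCNNGAA stood in at least 1 window of Hsph1 and Hspd1, and in 8.52% of all windows. The members are counted by gene and the shares by window, so they are not like measures. Both pairs read the same on either strand, and they can overlap. A run of 3 units, GAANNTTC with another GAA 2 bases further on, was searched on both strands and found for Hsph1 and Hspd1 and in 0.603% of all windows. The ER stress element, CCAAT and CCACG with 9 bases between them, was searched on both strands and found for Hspa5 and Hsp90b1 and in 0.119% of all windows. The stretches below are shown 5′ to 3′ on the strand of the gene because they hold a heat shock pair in members of the cytosol and mitochondrion and the ER stress element in the ER members, and capitals mark these elements.
Hspa1a, chr17:34972213-34972300, minus strand: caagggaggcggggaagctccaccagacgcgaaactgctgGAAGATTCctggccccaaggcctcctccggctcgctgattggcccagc
Hspa1b, chr17:34959295-34959382, minus strand: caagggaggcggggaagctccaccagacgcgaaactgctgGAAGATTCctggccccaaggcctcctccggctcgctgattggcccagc
Hsph1, chr5:149636351-149636380, minus strand: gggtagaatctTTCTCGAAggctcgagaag
Hspd1, chr1:55088053-55088082, minus strand: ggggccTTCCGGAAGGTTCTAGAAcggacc
Hspa5, chr2:34772020-34772048, plus strand: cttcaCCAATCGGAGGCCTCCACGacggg
Hsp90b1, chr10:86705523-86705666, minus strand: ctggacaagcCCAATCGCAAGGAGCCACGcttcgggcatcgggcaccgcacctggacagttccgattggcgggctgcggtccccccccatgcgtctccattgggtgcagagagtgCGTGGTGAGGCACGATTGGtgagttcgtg
The stretches of Hspa1a and Hspa1b were identical letter for letter, and the 250 bases before the start of these genes differed at 3 positions. In Hspd1, 4 units stood side by side with 2 bases between neighbours, from 144 to 127 bases before the start of the second of its 2 windows. In the GENCODE M21 annotation, the stretches shown for Hspd1, Hsph1 and Hspa5 overlap an exon of the same gene. These stretches are therefore not wholly in front of the annotated gene. In Hsph1, the stretch shown lies before the start of the first of its 2 windows, from 33 to 26 bases before it for the part in capitals. The run of 3 units and the GAANNTTC of Hsph1 lie after that start, 36 to 48 and 41 to 48 bases beyond the first transcribed base. Hsp90b1 held the ER element once on each strand, from 212 to 194 and from 107 to 89 bases before its start. The 2 windows of Dnajb1 held neither heat shock pair, which says only that these letters are not in those windows. A match of letters is a description and not a measured binding site.

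Counts in the table summed to between 25563070 and 37367094 per mouse. The 10 members together took 0.451% to 0.515% of the counts of a C57BL/6 mouse and 0.547% to 0.638% of those of a B6.SLE123 mouse. Values below are CPM, counts relative to the total of a library after TMM scaling, given in the order of replicates 1 to 4, with means ± SD of 4 mice. Log2 fold changes are B6.SLE123 over C57BL/6, and adjusted p-values come from the quasi-likelihood test of edgeR, adjusted over all 13786 genes by Benjamini and Hochberg's method. A gene was called where its adjusted p was below 0.05.

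Of the 10 members, 8 were called and all 8 were higher in B6.SLE123 mice, where 26.7% of all genes tested were called higher, 26.6% lower and 53.4% in either direction. None was called lower. The 7 cytosolic members and the mitochondrial Hspd1 were called higher, and neither ER member was called. For 6 members every B6.SLE123 mouse was above every C57BL/6 mouse, a pattern that 24.4% of all genes showed in that direction (48.9% in either). The median log2 fold change of the members was 0.50, while that of all genes was -0.002. Of the 10 members, 1 (Hsph1) was called with more than a 2-fold difference, where 11.1% of all genes tested were. In the table, 335 genes were called higher by at least as much as Hsph1. RNA of a mixed preparation was measured, so that fewer cells of a type and less RNA per cell cannot be told apart.

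**Figure D1:**
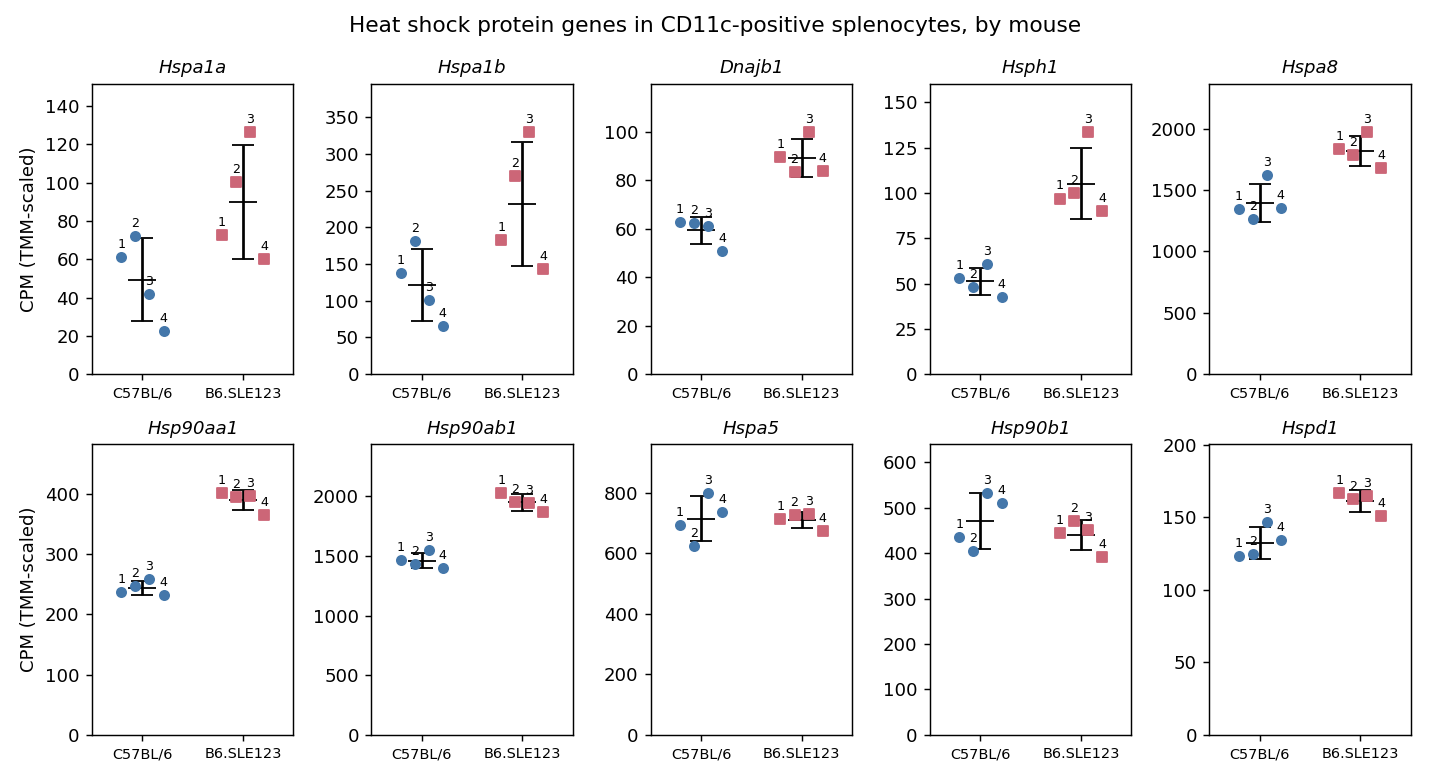
Each panel plots the TMM-scaled CPM of a heat shock protein gene on a linear axis from 0, with 1 point per mouse numbered by its replicate, blue circles for C57BL/6 and red squares for B6.SLE123. Horizontal lines and bars are the mean ± SD of 4 mice, and the strains are apart for Dnajb1, Hsph1, Hspa8, Hsp90aa1, Hsp90ab1 and Hspd1 and overlap for Hspa1a, Hspa1b, Hspa5 and Hsp90b1.

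Hspa1a and Hspa1b encode the stress-inducible HSP70, which is kept low in resting cells and rises fast after heat or other protein damage. Each gene has 1 exon and lies on chromosome 17 (mm10, minus strand), Hspa1a from 34969190 to 34972156 and Hspa1b from 34956436 to 34959238. Hspa1a stood at 61.3, 71.9, 41.7 and 22.6 CPM in C57BL/6 mice and at 72.5, 100.4, 126 and 59.9 CPM in B6.SLE123 mice. Hspa1b stood at 137, 181, 101 and 66.1 CPM in C57BL/6 mice and at 183, 270.1, 329.9 and 143 CPM in B6.SLE123 mice. The strains overlapped for both genes, since B6.SLE123 replicate 4 lay below C57BL/6 replicate 2. Hspa1a had a log2 fold change of 0.87 (49.4 ± 21.8 against 89.8 ± 29.7 CPM, standard error 0.32, adjusted p = 0.0379 by edgeR). Hspa1b had one of 0.93 (122 ± 49.4 against 231 ± 84.4 CPM, standard error 0.31, adjusted p = 0.0243 by edgeR). These are the least certain calls among the members. The 95% interval of the fold change ran from 1.13 to 2.97 for Hspa1a and from 1.19 to 3.05 for Hspa1b. Without C57BL/6 replicate 3, C57BL/6 replicate 4, B6.SLE123 replicate 2 or B6.SLE123 replicate 3, neither gene was called, and the adjusted p by edgeR lay between 0.0688 and 0.104 for Hspa1a and between 0.0540 and 0.0691 for Hspa1b. DESeq2 did not call Hspa1a either (adjusted p = 0.0708).

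The inducible pair also varied most between mice of the same strain. The highest C57BL/6 mouse had 3.19 times the Hspa1a of the lowest and 2.75 times the Hspa1b, and in B6.SLE123 mice these ratios were 2.11 and 2.31. The biological coefficient of variation that edgeR estimated was 31.1% for Hspa1a and 29.7% for Hspa1b, above that of 96.7% and 96.0% of all genes. The other members lay between 5.58% for Hsp90ab1 and 12.9% for Hsph1, where the median of the 5970 genes with a mean of at least 1000 counts was 5.77%. Both inducible genes kept the same order of mice within each strain. Hspa1a held 25.5% to 30.8% of the counts of the pair in C57BL/6 mice and 27.1% to 29.5% in B6.SLE123 mice.

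Reads of the pair are hard to assign, because the coding sequences (1923 bases of Hspa1a and 1926 of Hspa1b in GENCODE M21, without the stop codon) were 99.6% identical, with 8 mismatches in the aligned bases. Of all stretches of 100 bases in the Hspa1a transcript, 47.1% also occurred in that of Hspa1b, so the split of reads between the genes is uncertain. Hspa1a also shares 564 exonic bases with Gm20481 on the other strand, and whether counting used the strand was not given in the sources used here. Added together before the fit, the pair had a log2 fold change of 0.91 (adjusted p = 0.0279 by edgeR). Summed, it stood at 199, 253, 143 and 88.6 CPM in C57BL/6 mice and at 255, 371, 456 and 203 CPM in B6.SLE123 mice, and the strains overlapped here too.

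Dnajb1 and Hsph1 encode partners of HSP70 in the cytosol, the HSP40 that loads clients and stimulates ATP hydrolysis, and the HSP110 that exchanges the nucleotide. Dnajb1, on the plus strand of chromosome 8 from 83608193 to 83612653 with 4 exon blocks, stood at 62.8, 62.5, 61.2 and 50.7 CPM in C57BL/6 mice and at 89.8, 83.2, 99.9 and 83.9 CPM in B6.SLE123 mice. Every B6.SLE123 mouse was higher, with a log2 fold change of 0.59 (59.3 ± 5.75 against 89.2 ± 7.72 CPM, standard error 0.08, adjusted p = 9.87e-05 by edgeR). Hsph1, on the minus strand of chromosome 5 from 149614287 to 149636376 with 19 exon blocks, stood at 52.9, 48.3, 60.6 and 42.8 CPM in C57BL/6 mice and at 96.9, 99.96, 134 and 90.2 CPM in B6.SLE123 mice. The strains were clearly apart, and the lowest B6.SLE123 mouse lay above the highest C57BL/6 mouse. Its log2 fold change of 1.04 was the largest among the members (51.2 ± 7.54 against 105 ± 19.4 CPM, standard error 0.13, adjusted p = 6.18e-05 by edgeR). The 95% interval of its fold change ran from 1.69 to 2.51 and overlapped that of the inducible HSP70 genes.

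Hspa8 encodes the constitutive HSP70 of the cytosol (HSC70), which serves everyday folding, the uncoating of clathrin vesicles and the delivery of proteins to lysosomes. It lies on the plus strand of chromosome 9 from 40800984 to 40810087, with the small nucleolar RNA genes Snord14c, Snord14d and Snord14e inside it. It stood at 1344, 1261, 1622 and 1355 CPM in C57BL/6 mice and at 1833, 1784, 1972 and 1679 CPM in B6.SLE123 mice. The strains came close, between the highest C57BL/6 mouse and the lowest B6.SLE123 mouse, but did not overlap. Hspa8 thus had a log2 fold change of 0.38 (1395 ± 157 against 1817 ± 122 CPM, standard error 0.08, adjusted p = 0.00187 by edgeR).

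Hsp90aa1 and Hsp90ab1 encode the cytosolic HSP90 proteins, the first a form that stress can raise and the second the constitutive form. Hsp90aa1, on the minus strand of chromosome 12 from 110690605 to 110702728 with 11 exon blocks, stood at 237, 247, 258 and 232 CPM in C57BL/6 mice and at 402, 395, 397 and 364 CPM in B6.SLE123 mice. Hsp90ab1, on the minus strand of chromosome 17 from 45567775 to 45573271 with 9 exon blocks, stood at 1464, 1432, 1547 and 1399 CPM in C57BL/6 mice and at 2029.8, 1954, 1946 and 1865 CPM in B6.SLE123 mice. Both genes were tightly grouped within a strain and apart between strains. The log2 fold change of Hsp90aa1 was 0.68 (243 ± 11.6 against 389 ± 17.1 CPM, standard error 0.05, adjusted p = 1.31e-06 by edgeR), the smallest adjusted p among the members. That of Hsp90ab1 was 0.42 (1461 ± 63.5 against 1949 ± 67.4 CPM, standard error 0.05, adjusted p = 3.17e-05 by edgeR). The coding sequences of these genes were 76.2% identical where aligned.

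The question of whether the HSP90 pair shifted its balance can be put within each library, where scaling plays no part. The ratio of Hsp90aa1 to Hsp90ab1 counts was 0.162, 0.172, 0.167 and 0.166 in C57BL/6 mice and 0.198, 0.202, 0.204 and 0.195 in B6.SLE123 mice. Every B6.SLE123 mouse was above every C57BL/6 mouse. On the log2 scale the strains differed by 0.26 (-2.59 ± 0.04 against -2.32 ± 0.03, n = 4 each, p = 0.0286 by an exact two-sided permutation test, the lowest value open to 4 mice against 4, and p = 0.0857 adjusted over the 3 planned ratios). The difference therefore did not pass 0.05 after adjustment, although the mice did not overlap. For the other planned ratios the mice of the strains overlapped. The ratio of inducible to constitutive HSP70 (Hspa1a plus Hspa1b over Hspa8) was -3.13 ± 0.73 against -2.57 ± 0.45 on the log2 scale, a difference of 0.56 with overlapping mice (exact two-sided permutation test, p = 0.286 before and after adjustment, n = 4 each). The difference was 0.29 without C57BL/6 replicate 4 and 0.83 without C57BL/6 replicate 2.

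Hspa5 encodes BiP, the HSP70 of the ER, and Hsp90b1 encodes GRP94, the HSP90 of the ER, which folds Toll-like receptors and integrins. Hspa5, on the plus strand of chromosome 2 from 34771970 to 34777547 with 7 exon blocks, stood at 694, 626, 800.4 and 738 CPM in C57BL/6 mice and at 714, 725, 729 and 674 CPM in B6.SLE123 mice. Hsp90b1, on the minus strand of chromosome 10 from 86690209 to 86705509 with 16 exon blocks, stood at 434, 404, 533 and 511 CPM in C57BL/6 mice and at 444, 471, 450.04 and 392 CPM in B6.SLE123 mice. The strains overlapped for both genes, and the C57BL/6 mice spread over a wider range than the B6.SLE123 mice. Hspa5 had a log2 fold change of -0.01 (715 ± 73.6 against 711 ± 25.0 CPM, standard error 0.07, adjusted p = 0.927 by edgeR), and it was 0.0097 with upper quartile scaling and 0.05 without C57BL/6 replicate 3. Its 95% interval allowed a fold change between 0.896 and 1.10. That of Hsp90b1 was -0.10 (471 ± 61.1 against 439 ± 33.3 CPM, standard error 0.09, adjusted p = 0.367 by edgeR), with a 95% interval of the fold change from 0.816 to 1.07. It was -0.17 without C57BL/6 replicate 2 and -0.03 without C57BL/6 replicate 3. Hsp90b1 shares 632 exonic bases with the annotated genes 1810014B01Rik, Gm15344 and Gm25745, so some of its reads are uncertain.

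The ratio of Hsp90b1 to Hspa5 counts was 0.626, 0.646, 0.666 and 0.692 in C57BL/6 mice and 0.622, 0.649, 0.617 and 0.582 in B6.SLE123 mice. The mice overlapped, and the log2 difference of -0.09 did not pass (exact two-sided permutation test, p = 0.0857, and p = 0.129 adjusted over the 3 planned ratios). To set the compartments side by side, 2 ratios were added after the values of their genes had been seen, so they are given as a description with no test. The ratio of Hspa8 to Hspa5, the constitutive HSP70 of the cytosol over that of the ER, was 1.94, 2.01, 2.03 and 1.84 in C57BL/6 mice and 2.57, 2.46, 2.71 and 2.49 in B6.SLE123 mice. The ratio of Hsp90ab1 to Hsp90b1 was 3.37, 3.54, 2.90 and 2.74 in C57BL/6 mice and 4.57, 4.15, 4.32 and 4.75 in B6.SLE123 mice. For both ratios every B6.SLE123 mouse was higher, with mean differences of 0.39 and 0.51 on the log2 scale.

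Hspd1 encodes mitochondrial HSP60 and lies head to head with Hspe1, the gene of its HSP10 lid. Hspd1 runs on the minus strand of chromosome 1 from 55077835 to 55088243 with 12 exon blocks, and shares 112 exonic bases with Hspe1 on the other strand. It stood at 124, 124, 147 and 135 CPM in C57BL/6 mice and at 167, 163, 165 and 151 CPM in B6.SLE123 mice. The strains did not overlap, although C57BL/6 replicate 3 came near the lowest B6.SLE123 mouse. The log2 fold change of Hspd1 was 0.29 (132 ± 10.8 against 161 ± 7.27 CPM, standard error 0.06, adjusted p = 0.00215 by edgeR), the smallest among the members called. Hspe1 was also higher, by 0.36 (63.2 ± 3.69 against 80.9 ± 5.24 CPM, adjusted p = 0.000416 by edgeR).

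**Figure D2:**
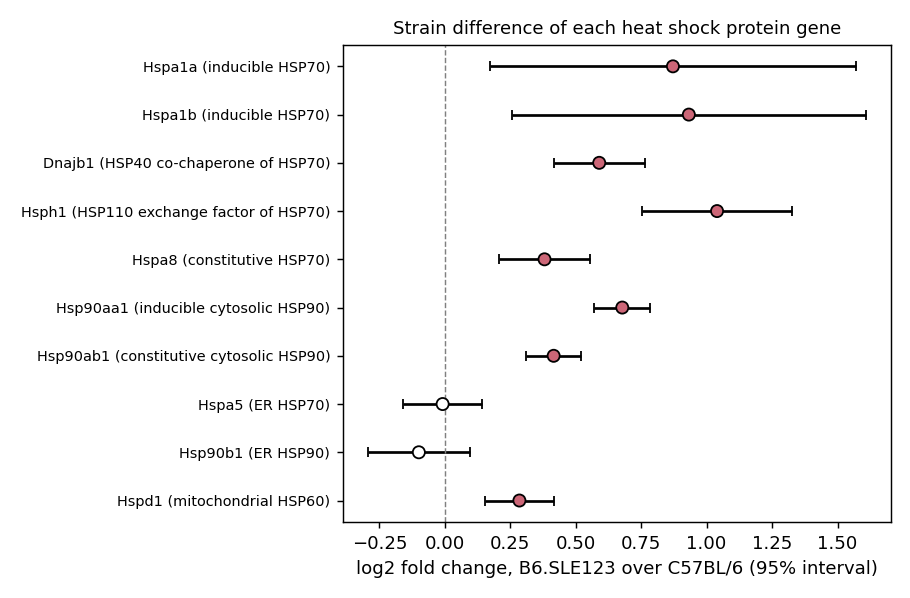
The log2 fold change of each member, B6.SLE123 over C57BL/6, is plotted with its 95% interval from the edgeR fit, filled where the adjusted p was below 0.05 and open where it was not. The intervals of the inducible pair are the widest, Hsph1 has the largest value at 1.04, and only the ER genes Hspa5 and Hsp90b1 have intervals that reach 0.

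Per kilobase of exon, the constitutive Hsp90ab1 and Hspa8 stood above all other members in every mouse of both strains. In C57BL/6 mice the mean level was 487 CPM per kilobase for Hsp90ab1, 324 for Hspa8, 169 for Hspa5, 117 for Hsp90b1, 61.9 for Hsp90aa1, 50.1 for Hspd1, 43.4 for Hspa1b, 18.5 for Dnajb1, 16.6 for Hspa1a and 7.04 for Hsph1. Neighbours in this order whose mice overlapped were Hspd1 and Hspa1b, Dnajb1 and Hspa1a, and Hspa1a and Hsph1. In B6.SLE123 mice the first 5 genes kept their order, with 649.8 CPM per kilobase for Hsp90ab1, 422 for Hspa8, 168 for Hspa5, 109 for Hsp90b1 and 99.1 for Hsp90aa1. They were followed by Hspa1b at 82.6, Hspd1 at 61.1, Hspa1a at 30.3, Dnajb1 at 27.8 and Hsph1 at 14.5 CPM per kilobase. In that strain Hsp90aa1 overlapped Hsp90b1 and Hspa1b, Hspa1b overlapped Hspd1, and Hspa1a overlapped Dnajb1. Hspa1b stood below Hspd1 in C57BL/6 mice and above it in B6.SLE123 mice, but the mice of these genes overlapped in both strains.

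**Figure D3:**
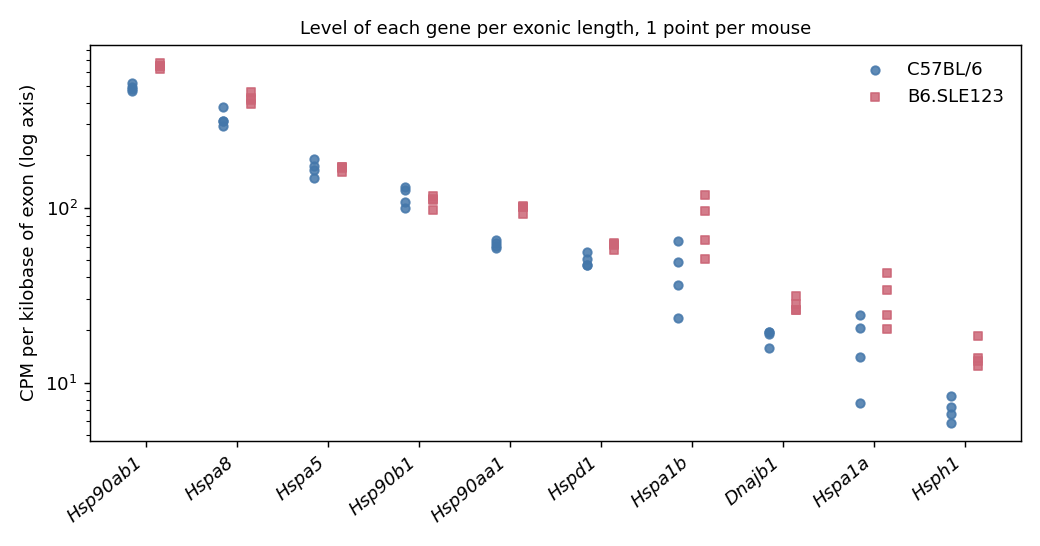
TMM-scaled CPM per kilobase of exon is plotted on a log axis for each gene, 1 point per mouse, blue circles for C57BL/6 and red squares for B6.SLE123. Genes are in order of their level in C57BL/6 mice, from 487 CPM per kilobase for Hsp90ab1 to 7.04 for Hsph1, and the points of Hspa1a and Hspa1b spread most within a strain.

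The mice did not keep 1 order across the members. B6.SLE123 replicate 4 was the lowest of its strain for 9 of the 10 members, with Dnajb1 as the exception, and B6.SLE123 replicate 3 was the highest for 6. Among C57BL/6 mice, replicate 3 was the highest for 7 members and replicate 4 the lowest for 6. C57BL/6 replicate 3 was thus highest for Hspa8, Hsp90aa1, Hsp90ab1, Hspa5, Hsp90b1, Hspd1 and Hsph1 but not for the inducible HSP70 genes, where replicate 2 was highest.

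For 5 members, a gene with the nearest pattern over the 8 mice was another chaperone or a helper of one. Likeness was the root mean square difference between log2 CPM profiles centred on their means, among 10419 genes. Nearest to Hspa5 were Hyou1 (0.0284), the HSP110 of the ER, and Sdf2l1 (0.0387), an ER protein that works with BiP. Nearest to Hsp90b1 were Calr (0.0495), the ER chaperone calreticulin, and Chpf (0.0545). Dnajb1 was followed most closely by Dnaja1 (0.0488), another HSP40, and by Aff3 (0.0693). Hspa8 had Stip1 (0.0543), the adaptor that passes clients from HSP70 to HSP90, and Ccdc86 (0.0649), while Hspd1 had Nudcd1 (0.0360) and the TRiC subunit Cct3 (0.0416).

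The remaining members had no chaperone among their nearest 2 genes. Hsp90aa1 had Cep162 (0.0418) and the amino acid transporter gene Slc7a5 (0.0575), and Hsp90ab1 had Entpd5 (0.0323) and Tlnrd1 (0.0342). Hsph1 had Zfp658 (0.135) and the cyclin gene Ccne1 (0.143). The inducible pair had no gene this near, with Clnk (0.348) and Ccdc120 (0.376) nearest to Hspa1a and Clnk (0.304) and Kdr (0.329) nearest to Hspa1b, whereas the pair itself differed by 0.108. These are descriptions over 8 mice, and a difference between strains shared by many genes brings such profiles together.

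The wider chaperone lists held calls in both directions. Of 173 genes in 8 lists, 49 were called higher and 36 lower in B6.SLE123 mice, 88 were not called, and the median log2 fold change was 0.02. Over all genes tested 26.7% were higher and 26.6% lower. The transcription factors came first. Of 5 genes for heat shock factors and their binding protein none was called higher, and 2 were lower: Hsf1, the master regulator of the heat shock response, by -0.19 (62.2 ± 1.88 against 54.7 ± 2.29 CPM, adjusted p = 0.00476 by edgeR), and Hsf4 by -1.59 (3.96 ± 0.409 against 1.32 ± 0.193 CPM, adjusted p = 9.49e-06 by edgeR). With upper quartile scaling, the replicate block or limma-voom, or without C57BL/6 replicate 2, 1 of the 5 was called higher.

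Among 13 other genes of the HSP70, HSP110 and small heat shock protein families, 2 were higher and 3 were lower. The shares over all genes tested were 26.7% higher and 26.6% lower. The median of the list was -0.28, or -0.14 with genes under 10 counts in any mouse left out and -0.15 without B6.SLE123 replicate 3. Hspa14 was higher by 0.34 (adjusted p = 0.000143 by edgeR) and Hspa4, named after its value was seen, by 0.22 (adjusted p = 0.00228 by edgeR). Hspa4l was lower by -0.56 (adjusted p = 0.00105 by edgeR) and the small heat shock protein gene Hspb6 by -0.58 (adjusted p = 0.00244 by edgeR). Hspb8, also named after its values were seen, had 2, 8, 8 and 4 counts in C57BL/6 mice and 0 in every B6.SLE123 mouse, at least 8.16-fold lower against a floor of 3 counts over the group, which covers counting error only. The median of the list was the same with Hspb8 at that bound.

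J-domain proteins, the family of Dnajb1, outside the ER and mitochondrial lists had 6 of 25 genes higher and 6 lower. This was close to the shares of all genes (26.7% and 26.6%). The median was 0.02, and -0.0048 when genes with under 10 counts in any mouse were left out. Dnaja1 was higher by 0.65 (138 ± 10.9 against 216 ± 17.1 CPM, adjusted p = 1.91e-05 by edgeR) and Dnajc9, which also handles histones, by 0.46 (adjusted p = 4.49e-05 by edgeR). Dnajb13 was lower by -0.43 (adjusted p = 0.0183 by edgeR). Without C57BL/6 replicate 1 or C57BL/6 replicate 3, 2 of the 25 were called lower, and the median was -0.01 without B6.SLE123 replicate 2.

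Of 30 genes for HSP70 exchange factors and HSP90 co-chaperones, 9 were higher and 5 lower, and the median was 0.10. Among all genes tested, 26.7% were higher and 26.6% lower. Unc45a, the HSP90 co-chaperone for myosin folding, was higher by 0.86 (37.8 ± 1.11 against 68.4 ± 1.07 CPM, adjusted p = 1.56e-07 by edgeR). Fkbp4 and Cacybp were each higher by 0.44, with adjusted p = 0.000532 and 3.03e-05 by edgeR. Bag3, an exchange factor and a known target of heat shock factor 1, was not called, at 15.4 ± 1.52 against 17.6 ± 1.68 CPM (log2 fold change 0.19, adjusted p = 0.104 by edgeR).

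The genes around the ER members were called about as often as all genes (26.7% higher, 26.6% lower). Of 32 ER chaperones and folding enzymes 8 were higher and 9 lower, with a median of -0.01 that was 0.0063 with upper quartile scaling and 0.02 without C57BL/6 replicate 3. Calr stood at 798 ± 98.2 against 781 ± 39.1 CPM and was not called (-0.03, adjusted p = 0.768 by edgeR). Pdia5, a disulphide isomerase, was higher by 0.76 (adjusted p = 0.000245 by edgeR), while Sil1, the exchange factor of BiP, was lower by -0.63 (adjusted p = 1.72e-05 by edgeR) and Fkbp2 by -0.46 (adjusted p = 0.000164 by edgeR). Of 26 genes for the unfolded protein response and ER-associated degradation 6 were higher and 8 lower, with a median of -0.07. Xbp1, whose spliced RNA encodes a factor that drives ER chaperone genes, was lower by -0.39 (146 ± 12.2 against 111 ± 9.66 CPM, adjusted p = 0.000982 by edgeR). The phosphatase subunit gene Ppp1r15a was lower by -0.51 (adjusted p = 5.96e-05 by edgeR), and Derl3 was higher by 1.10 at a low level (1.74 ± 0.107 against 3.74 ± 0.804 CPM, adjusted p = 0.000316 by edgeR).

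Of the mitochondrial chaperones and proteases 4 of 22 were higher and 3 lower, with a median of -0.06. The shares over all genes tested, for this list and the next, were 26.7% higher and 26.6% lower. Hspa9, the mitochondrial HSP70, stood at 141 ± 7.16 against 141 ± 6.66 CPM (-0.01, adjusted p = 0.916 by edgeR). The protease gene Htra2 was higher by 0.30 (adjusted p = 0.00101 by edgeR) and Oma1 was lower by -0.20 (adjusted p = 0.00836 by edgeR). TRiC, the ring chaperonin that folds actin and tubulin, its helper prefoldin and the tubulin cofactors leaned 1 way. Of these 20 genes 14 were higher and none was lower, and the median was 0.20. Tcp1 was higher by 0.33 (adjusted p = 5.77e-05 by edgeR), Cct7 by 0.34 (adjusted p = 8.59e-05 by edgeR) and Tbca by 0.35 (adjusted p = 0.00128 by edgeR). Summed over the list, their level was 1806 to 1931 CPM in C57BL/6 mice and 2136 to 2313 CPM in B6.SLE123 mice.

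**Figure D4:**
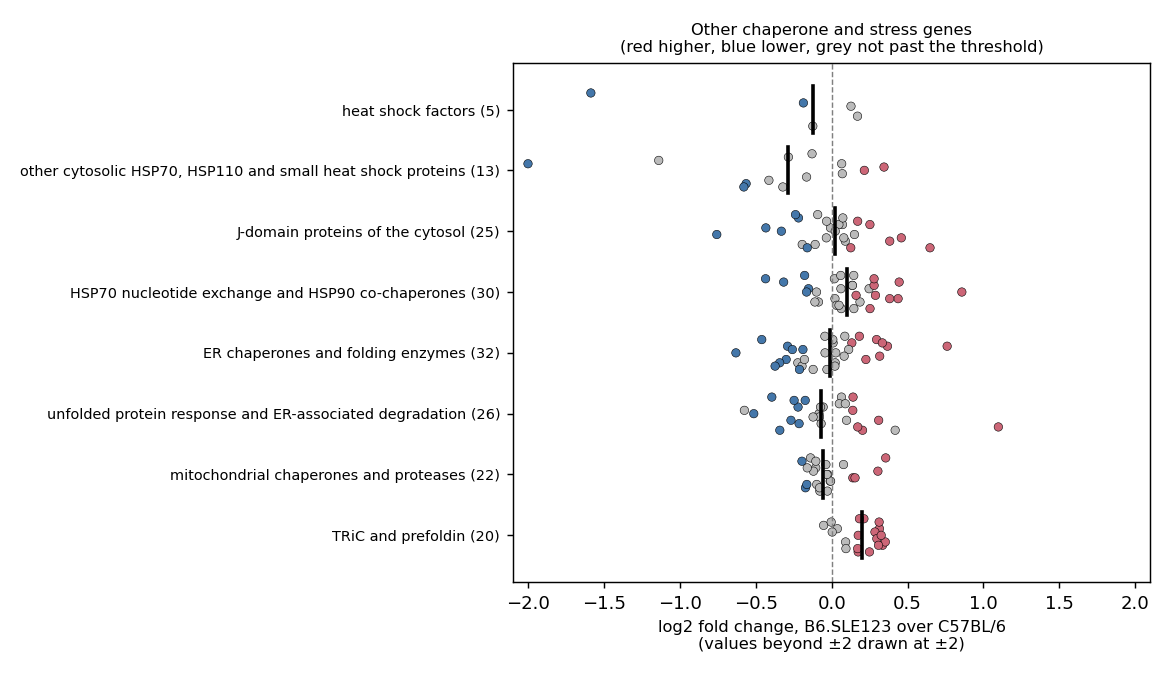
Each point is a gene of a wider chaperone list, placed by its log2 fold change, B6.SLE123 over C57BL/6 (red called higher, blue called lower, grey not called at an adjusted p of 0.05), with the number of genes in brackets and a black bar at the median of the list. Hspb8, with no count in B6.SLE123 mice, is drawn at the left edge, and the bar of TRiC and prefoldin, at 0.20, stands farthest to the right.

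The RNA of cell type markers, proliferation genes and immediate early genes also differed between the strains, beside all of these results. Itgax itself was at 1219 to 1398 CPM in C57BL/6 mice and at 1437 to 1652 CPM in B6.SLE123 mice (0.22 on the log2 scale, adjusted p = 0.00942 by edgeR). The dendritic cell genes Flt3 (431 to 481 against 596 to 626 CPM, 0.39, adjusted p = 3.52e-05 by edgeR) and Zbtb46 (201 to 207 against 229 to 285 CPM, 0.32, adjusted p = 0.000981 by edgeR) were also higher without overlap. Cd74 and H2-Aa, of antigen presentation, were higher by 0.25 and 0.26 (adjusted p = 0.00716 and 0.00339 by edgeR). Itgax, Flt3, Zbtb46, Cd74 and H2-Aa were in none of the marker lists, and the plan did not name them. Over all genes tested, 26.7% were called higher and 26.6% lower. In B6.SLE123 mice all 15 red pulp macrophage markers were lower, by a median log2 fold change of -2.48. Their summed level was 13856 to 17542 against 2029 to 3919 CPM. Of 11 markers of type 1 conventional dendritic cells 9 were higher and 1 lower (median 0.82, summed 3703 to 4284 against 5667 to 7563 CPM). All 15 proliferation genes were higher (median 0.98, summed 776 to 854 against 1405 to 1836 CPM). Of 18 immediate early genes, which respond fast to stimulation of cells, 1 was higher and 12 were lower (median -0.72, summed 2807 to 3403 against 1751 to 2280 CPM). The lists of type 2 conventional and plasmacytoid dendritic cells, given below, had negative medians. For comparison, the 8 members called had log2 fold changes from 0.29 (Hspd1) to 1.04 (Hsph1). Those of the ER members Hspa5 and Hsp90b1 were -0.01 and -0.10. The part of the marker shifts in the values of the heat shock protein genes was not tested.

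The remaining marker lists are given by their counts and median log2 fold changes. The shares to set these counts against were 26.7% higher and 26.6% lower over all genes tested. B cell markers had 1 of 12 higher and 9 lower (median -0.64), type 2 conventional dendritic cells 1 of 10 higher and 4 lower (-0.35), and plasmacytoid dendritic cells 2 of 11 higher and 5 lower (-0.15). Monocyte markers had 1 of 10 higher and 4 lower (-0.28), neutrophils 3 of 10 higher and 4 lower (-0.24, or 0.02 without B6.SLE123 replicate 3), T cells 1 of 11 higher and 2 lower (-0.32), and NK cells 0 of 10 higher and 1 lower (-0.23). Monocyte and T cell medians were -0.18 and -0.18 without B6.SLE123 replicate 2, that of T cells was -0.19 without C57BL/6 replicate 1, and that of NK cells was -0.46 without B6.SLE123 replicate 1. Plasma cells, which are rich in ER chaperones, had 3 of 10 higher and 3 lower (median 0.18), with a summed level of 672 to 715 against 613 to 682 CPM. Without B6.SLE123 replicate 2 that median was 0.29, without C57BL/6 replicate 2 it was 0.27, and without B6.SLE123 replicate 3 it was 0.11. Of 9 erythroid markers 6 were lower, with a median of -2.55. Tfrc, the transferrin receptor gene, which dividing cells also use, was the only one higher, at 114 ± 11.8 against 242 ± 19.9 CPM (1.09, adjusted p = 1.40e-06 by edgeR), and all the others had negative log2 fold changes. Tfrc carried the summed level of the list, which was 111 to 148 CPM in C57BL/6 mice and 221 to 261 CPM in B6.SLE123 mice. It was named after its value was seen.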

How the data were processed

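Libraries of stranded mRNA were made from CD11c-positive splenocytes, 4 per strain. According to the methods, cutadapt, STAR (mm10) and featureCounts were used, and the authors deposited the raw count of each gene and mouse. In each gene at least 1 strain had a median of 5 counts or more. The deposited columns of the authors' DESeq2 comparison (mean normalised value, log2 fold change, standard error, statistic, p, adjusted p and fold change) were not used. Symbols turned into dates were restored for 21 genes. All 10 members have the coordinates of GENCODE M21, from which exons were taken.

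All 13786 genes were fitted without a filter, with TMM factors and the quasi-likelihood test of edgeR 4.0.16 under R 4.3.3, after tests on simulated data. Ratios used a prior count of 2. Alternatives were other scaling factors (relative log expression, upper quartile, total counts), a minimum of 10 counts per mouse, a replicate block, limma-voom (limma 3.58.1), DESeq2 1.42.0, the Hspa1 pair added, a prior count of 10, and each mouse left out. The members, lists and tests were chosen with earlier results of these data known. Named in each list were the 3 genes with the largest change among those called and averaging 100 counts or more in the higher strain. Hsf1, Hspe1, Hspa9, Bag3, Calr and Xbp1 were also named. For each member its 2 nearest genes of such a count were named, with predicted genes and the other members left out. The labels give no batch. Pairs of mice within a strain differed by more than sampling noise (chi-square per degree of freedom 4.96 to 18.9). Genotype labels carry a strain number that rises from mouse to mouse, so strains were taken from the sample names.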

Additional observations from a re-analysis of the deposited data

Results flagged for a closer look

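Among 72 sets of 4 mice (log2 CPM of a member, a log2 ratio of the 5 pairs, or mean log2 CPM of a list, within a strain), 4 had a mouse whose gap to the nearest of the others passed Dixon's limit, where chance alone gives 3.6. Dnajb1 stood at a log2 CPM of 5.67 in C57BL/6 replicate 4, below the median of 5.95 in its strain. Hsp90aa1 stood at 8.51 in B6.SLE123 replicate 4, below the median of 8.63. The neutrophil markers averaged 1.29 in C57BL/6 replicate 3, above the median of 1.03, and -0.012 in B6.SLE123 replicate 3, below the median of 1.18.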

How the results depend on the processing

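The calls of Dnajb1, Hsph1, Hspa8, Hsp90aa1, Hsp90ab1 and Hspd1 were kept under every alternative run, and those of Hspa1a and Hspa1b were not. DESeq2 called 7 members, since Hspa1a had a log2 fold change of 0.86 with an adjusted p of 0.0708, and edgeR called 6 without C57BL/6 replicate 3, C57BL/6 replicate 4, B6.SLE123 replicate 2 or B6.SLE123 replicate 3, where the pair was lost. With each mouse left out in turn, the log2 fold change lay between 0.62 and 1.11 for Hspa1a, between 0.71 and 1.19 for Hspa1b, between -0.067 and 0.051 for Hspa5, which turned its sign without C57BL/6 replicate 3 (0.051) or B6.SLE123 replicate 4 (0.0051) and with upper quartile factors (0.0097) and was never called, and between -0.17 and -0.034 for Hsp90b1, also never called. The number of members called higher stayed between 6 and 8. Upper quartile factors also moved the median of all genes to 0.016, that of the ER chaperones to 0.0063 and that of the mitochondrial list to -0.040. Leaving out genes with under 10 counts in any mouse gave medians of -0.14 for the other HSP70, HSP110 and small heat shock proteins, -0.0048 for J-domain proteins and -0.071 for the mitochondrial list. With each mouse left out, medians ranged from -0.33 to -0.15 for the other HSP70, HSP110 and small heat shock proteins, -0.010 to 0.027 for J-domain proteins, -0.054 to 0.022 for ER chaperones, -0.085 to -0.046 for the unfolded protein response, -0.089 to -0.045 for the mitochondrial list and -0.42 to 0.021 for neutrophil, -0.43 to -0.18 for T cell, -0.46 to -0.18 for NK cell, -0.38 to -0.18 for monocyte and 0.11 to 0.29 for plasma cell markers, and the J-domain genes called lower from 2 to 7. Of the heat shock factors, 0 or 1 was called higher with a mouse left out, and 1 with upper quartile factors, limma-voom or the replicate block. With a mouse left out, the log2 difference lay between 0.25 and 0.28 for the ratio of Hsp90aa1 to Hsp90ab1, each with p = 0.0571, the smallest an exact permutation test of 4 mice against 3 can give, between 0.29 and 0.83 for Hspa1a plus Hspa1b to Hspa8, and, with no test, between 0.36 and 0.41 for Hspa8 to Hspa5 and between 0.45 and 0.57 for Hsp90ab1 to Hsp90b1. Mice with the same replicate number deviated together weakly (r between 0.076 and 0.23 across 10620 genes). Closest to their own number were 2 of 4 C57BL/6 and 3 of 4 B6.SLE123 mice. The labels do not give the numbers as pairs, so the main fit did not use them, and whether equal numbers share a batch was not tested. The replicate block called 8 members and 7183 genes. With the block, the adjusted p by edgeR was 0.00529 for Hspa1a and 0.00223 for Hspa1b, against 0.0379 and 0.0243 in the main fit. For Hsp90aa1, Hsp90ab1 and Hspd1 it was larger with the block. The cause of these changes was not tested.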
